A study of Mus musculus and Homo sapiens with 24 samples.

Results

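TET2 knockout (KO) and wild-type (WT) K-562 cells that both carried a control short hairpin RNA (shControl) were compared across all genes. K-562 is a human cell line from a chronic myeloid leukaemia that keeps features of red-cell precursors. The comparison was chosen by the sample titles and rests on 6 libraries, 3 per genotype, of the 24 in the series, whose other 18 hold K-562 cells with a hairpin against *MBD6* (shMBD6) and mouse progenitor cells. Both groups shared the hairpin, its lentiviral vector pLKO.1-shC002 and puromycin selection, and differed in the genotype given for *TET2*, WT or -/-. The study's methods name cells of both genotypes as gifts made elsewhere, and WT K-562 cells also as obtained from a culture collection. Which WT stock these libraries came from is not stated. The sources used here do not state whether the KO line is 1 clone, so a difference between the genotypes and a difference between 2 separately grown lines cannot be told apart. The labels number the 3 libraries of a group without saying that they came from separate cultures. The p-values therefore measure the spread between these libraries, which may be technical.

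TET2 is a dioxygenase that oxidises 5-methylcytosine in DNA and in RNA, and its gene is often mutated in myeloid leukaemia. In blood progenitors its loss is known for enhanced self-renewal and a shift towards the myeloid lineage. The study asked how the absence of TET2 combines with that of MBD6, a reader of methylated RNA that brings the BAP1 deubiquitinase to chromatin. The control-hairpin libraries compare the genotypes without the hairpin against *MBD6*.

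The 6 libraries held 27625013 to 39877202 gene counts. Between 10.8 and 11% of the reads in WT and 13.2 to 13.8% in KO libraries were assigned to no annotated feature by the counting program HTSeq. Where such reads lay, within genes or between them, is not given. In WT 13317 to 13337 genes and in KO 13516 to 13561 genes reached 1 CPM, a count scaled to a library of fixed size. *TET2* had 33.6, 28.4 and 30.5 CPM in the WT libraries and 33.2, 34.1 and 32.7 CPM in the KO libraries (edgeR adjusted p 0.174, log2 fold change 0.12 with SE 0.0662), so the groups overlapped and the gene counts do not check the genotype; without WT replicate 1 it passed, at 0.18. KO below means the libraries labelled so. Both groups carried a mark of the line: *CDKN2A*, *CDKN2B* and *MTAP*, a block of chromosome 9 that K-562 is known to have lost, had 0 counts in the 6 libraries. *BCR* and *ABL1* were expressed (148 ± 1.22 to 168 ± 11.8 CPM and 249.6 ± 6.38 to 281 ± 10.9 CPM from WT to KO, mean ± SD). Counts per gene cannot show their fusion.

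Between the genotypes, 7683 of 17936 genes tested differed (42.8%), 3973 higher (22.2%) and 3710 lower (20.7%) in KO, by edgeR's quasi-likelihood test at a Benjamini-Hochberg adjusted p under 0.05. Most differences were small. Of the called genes, 4252 (55.3%) changed by less than 0.5 on the log2 scale. A change of at least 2-fold was seen in 1274 genes that were higher and 588 that were lower (7.10% and 3.28% of genes tested, 10.4% together), and at least 4-fold changes for 639 and 210. All values are relative to the other genes of a library. The spiked ERCC RNAs made up 0.872 to 0.881% of gene counts in the WT group and 0.363 to 0.385% in KO libraries (exact permutation test, two-sided, p = 0.1, the smallest that 3 against 3 allows). When libraries were scaled to them instead, the median log2 fold change moved up by 1.26, with 15959 calls higher and 222 lower. The ERCC share was 0.392 to 0.397% in WT and 0.3202 to 0.323% in KO libraries with shMBD6, so the 3 WT shControl libraries stood apart from the other 9. Whether these 3 libraries came from less RNA per cell or received more spike-in cannot be told apart. Every fall below is a fall in share of the library and, where it is smaller than that shift, turns into a rise under ERCC scaling.

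**Figure D1:**
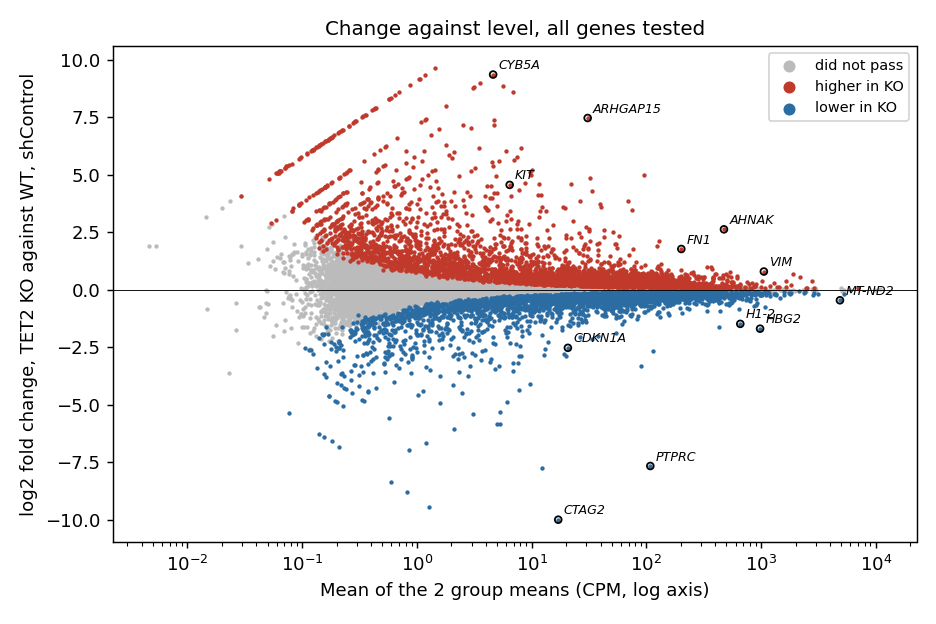
Log2 fold change of KO against WT (vertical axis) by the mean level in CPM (horizontal log axis) for the 17936 genes tested with shControl, red where higher and blue where lower at an adjusted p under 0.05. Rises outnumber falls among low genes (271 against 66 under 0.3 CPM), and falls outnumber rises at 100 CPM or more (845 against 578). The filter on low counts shapes the lowest levels.

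The direction of the differences varied with the level of the gene. Under 0.3 CPM, 271 of 1543 genes were higher and 66 lower, with a median log2 fold change of 0.41. At 100 CPM or more, 578 of 2245 were higher and 845 lower, with a median of -0.03. With shMBD6 the medians at these levels were 0.22 and -0.05. The filter on low counts keeps genes with enough reads in only some of the 12 K-562 libraries, so it shapes the lowest level. Genes with any read numbered 23118 to 24630 in WT shControl and 26092 to 26476 in WT shMBD6 libraries. What part either has in the rises of low genes was not tested. Of the long non-coding RNAs 14.5% were higher and 11.2% lower of 2973, and of the protein-coding genes 25.04% and 24.8% of 13104. The typical SE was 0.528 on the log2 scale under 1 CPM and 0.0371 at 100 CPM or more, so a difference of a given size passed less easily in low genes. In the KO libraries 35 genes stood at 3 CPM or more that were under 0.3 CPM in WT, and 10 genes showed the opposite.

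Among genes of at least 5 CPM in the higher group, the largest rises were in genes that were close to silent in WT cells. *CYB5A* (ENSG00000166347.18, hg38 chromosome 18, 74250846 to 74291973, minus strand), which encodes cytochrome b5, a haem protein that passes electrons to enzymes of the endoplasmic reticulum, had 0, 0 and 0.0348 CPM in the WT libraries and 9.45, 7.74 and 10.5 CPM in the KO libraries. The 3 WT libraries held 1 read in all and the KO libraries 927, a ratio of 883-fold (95% exact interval 158 to 34899), where the interval covers counting error only. *LINC02241*, a long non-coding RNA (ENSG00000251629.6, chromosome 5, 20611806 to 20937800, plus strand), had 0.0362, 0 and 0 CPM in the WT libraries and 6.57, 7.51 and 7.29 CPM in the KO libraries. *LINC00508* had 0.0725, 0 and 0 CPM in the WT libraries and 11.3, 10.8 and 11.5 CPM in the KO libraries, and *GRID1*, a glutamate receptor of the delta type, 0, 0 and 0.0348 CPM in the WT libraries and 5.68, 5.92 and 7.04 CPM in the KO libraries. The selection required groups that did not overlap, which held for 51.2% of all genes tested. Each KO library was above 5 CPM for these 4 genes.

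Among the other large rises, *DACH1*, a transcription factor that represses through chromatin, had 0.0362, 0.0502 and 0 CPM in the WT libraries and 13.7, 14.2 and 13.1 CPM in the KO libraries. *SEMA3D*, a secreted axon-guidance ligand, had 0, 0.0251 and 0 CPM in the WT libraries and 6.24, 6.14 and 6.3998 CPM in the KO libraries. *PDGFD*, a ligand of the PDGF receptor beta, had 0, 0.0502 and 0.104 CPM in the WT libraries and 9.36, 9.92 and 8.53 CPM in the KO libraries. In each the ratio of the summed reads was large and imprecise, since the WT libraries held 1 to 5 reads: 438-fold (95% exact interval 149.7 to 2128) for *DACH1* and 602-fold (95% exact interval 108 to 23805) for *SEMA3D*. *ARHGAP15* (ENSG00000075884.13, chromosome 2, 143091362 to 143768352, plus strand), a GTPase-activating protein for RAC1, had 0.326, 0.301 and 0.417 CPM in the WT libraries and 64.7, 61.8 and 57.4 CPM in the KO libraries (edgeR adjusted p 1.17e-17, log2 fold change 7.47 with SE 0.187). *CCDC148* (0.0571 ± 0.0374 to 9.39 ± 0.839 CPM), *ANKFN1* (0.0887 ± 0.0466 to 6.91 ± 0.151 CPM), *ACP3*, a prostatic acid phosphatase (0.186 ± 0.189 to 11.7 ± 0.274 CPM), and *HDC*, the histamine-producing histidine decarboxylase (0.0367 ± 0.0377 to 5.88 ± 0.449 CPM), complete the 12 largest rises. These 4 had log2 fold changes from 6.02 to 7.16. *SEMA3D* and *HDC* lie within the chromosomal runs described below. All 12 rises had an edgeR adjusted p of 6.86e-13 or lower.

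The largest falls, by the same limit of 5 CPM, were in genes that WT cells expressed at clear levels. *PTPRC* (ENSG00000081237.19, chromosome 1, 198638457 to 198757476, plus strand), which encodes CD45, the phosphatase on the surface of nearly all white blood cells, had 223, 209 and 215 CPM in the WT libraries and 1.56, 0.869 and 0.732 CPM in the KO libraries (edgeR adjusted p 2.83e-22, log2 fold change -7.67 with SE 0.102). *CTAG2* (ENSG00000126890.13, chromosome X, 154651972 to 154653579, minus strand), a cancer-testis antigen, had 33.2, 36.9 and 32.3 CPM in the WT libraries and 0, 0.0841 and 0 CPM in the KO libraries. The KO libraries held 3 reads of it in all, and the ratio of WT to KO was 1161-fold (95% exact interval 397 to 5632). *ROBO1* (ENSG00000169855.19, chromosome 3, 78597239 to 79767998, minus strand), a receptor for SLIT guidance ligands, had 24.02, 24.4 and 24.6 CPM in the WT libraries and 0.177, 0.112 and 0.0318 CPM in the KO libraries (edgeR adjusted p 1.42e-17, log2 fold change -7.76 with SE 0.197). The 3 genes went from well expressed to under 2 CPM in every KO library.

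Next in size among the falls, *CTLA4*, an inhibitory receptor of T cells, went from 10.4 ± 0.566 to 0.179 ± 0.0345 CPM, *MAEL*, a factor of the piRNA pathway in germ cells, from 6.08 ± 0.555 to 0.144 ± 0.151 CPM, and *EPSTI1*, an interferon-inducible gene, from 11.9 ± 1.99 to 0.398 ± 0.111 CPM. *B3GALNT1* (10.4 ± 0.264 to 0.2602 ± 0.0785 CPM), a glycosyltransferase of globoside synthesis, *GSDME* (14.7 ± 1.74 to 0.706 ± 0.1697 CPM), a pore-forming gasdermin, *ZDBF2* (5.21 ± 0.721 to 0.391 ± 0.184 CPM), an imprinted gene, *TKTL1* (12.6 ± 0.774 to 1.08 ± 0.0833 CPM), a transketolase-like gene, and *TP73* (8.75 ± 1.15 to 0.803 ± 0.272 CPM), a relative of p53, followed with *AHSP*, described with the globins below. The log2 fold changes of these 9 ran from -5.84 to -3.46. Groups that did not overlap were a condition of their selection.

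**Figure D2:**
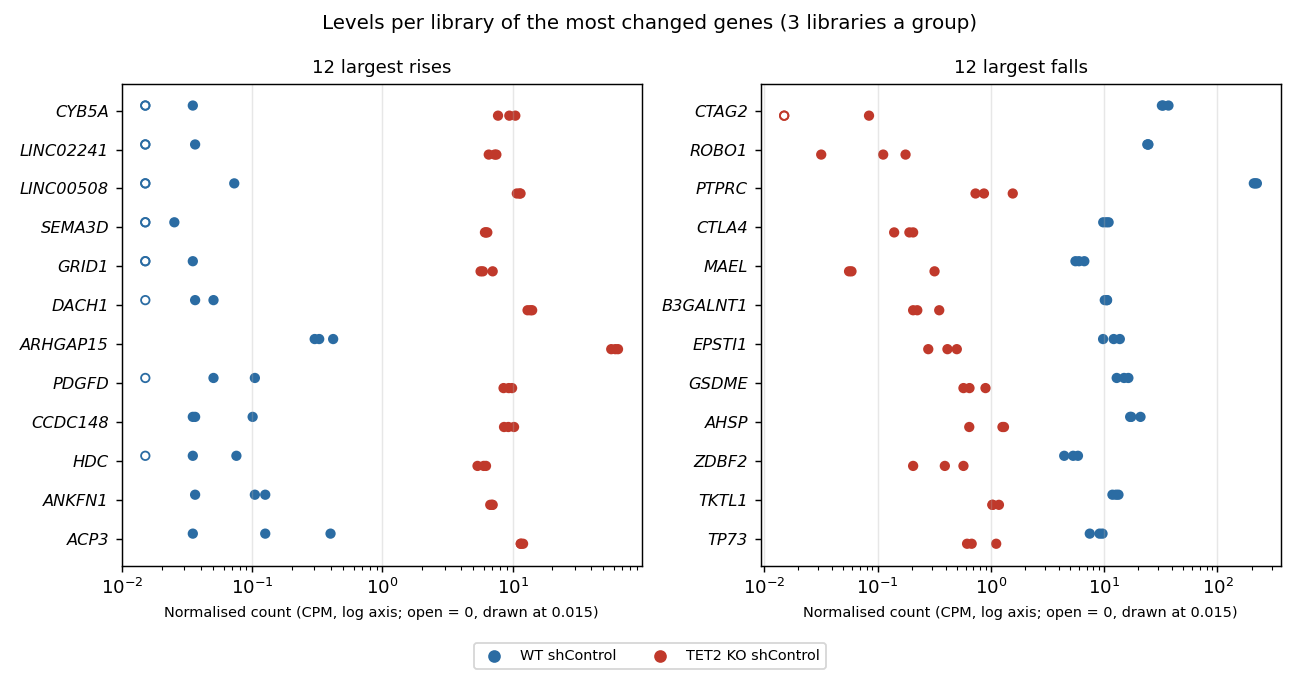
Level per library in CPM (log axis) of the 12 genes with the largest rises (left) and the 12 with the largest falls (right), blue for WT shControl and red for KO shControl, 3 libraries each, with open circles for libraries at 0. The groups do not overlap in any of the 24 genes, which the selection required and which held for 51.2% of all genes tested. The *PTPRC* points lie at 209 CPM and above in WT and at 1.56 CPM and below in KO.

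Because TET2 acts on methylated cytosine, which in DNA sits mostly at CpG, the 250 bases upstream of the annotated start are shown for *LINC02241*, one of the largest rises, and *ROBO1*, one of the largest falls, from hg38, 5′ to 3′, with every CpG in capitals. They are chr5:20611556-20611805 on the plus strand for LINC02241 and chr3:79767999-79768248 on the minus strand for ROBO1. No methylation was measured in these files, and the start is that of the Ensembl canonical transcript, which K-562 need not use.
LINC02241: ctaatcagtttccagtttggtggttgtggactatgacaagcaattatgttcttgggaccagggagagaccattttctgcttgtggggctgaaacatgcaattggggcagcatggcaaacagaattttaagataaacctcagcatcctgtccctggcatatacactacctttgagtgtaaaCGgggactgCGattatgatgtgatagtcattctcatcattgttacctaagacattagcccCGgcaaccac
ROBO1: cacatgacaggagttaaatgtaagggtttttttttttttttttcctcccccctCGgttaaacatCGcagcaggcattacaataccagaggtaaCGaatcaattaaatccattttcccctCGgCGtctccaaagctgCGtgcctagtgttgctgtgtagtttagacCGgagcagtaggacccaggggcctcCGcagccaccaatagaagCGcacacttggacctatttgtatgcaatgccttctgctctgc
They hold 3 and 9 CpG, against a median of 19 over the 17831 tested genes with such a window. Of these windows 74.8% held at least as many CpG as that of *ROBO1* and 90.3% as many as that of *LINC02241*. Both windows held fewer CpG than the median window.

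Over all protein-coding genes tested, 10730 of 13102 (81.9%) had a CpG-rich promoter, defined as an observed to expected CpG ratio of 0.6 or more over the 1000 bases around the start. Among genes at least 2-fold higher in KO the number was 486 of 856 (56.8%), among those at least 2-fold lower 239 of 401 (59.6%), and among genes not called 5382 of 6570 (81.9%). The share of CpG-rich promoters was thus lower than the background among the large changes of both directions, by 25.1 and 22.3 percentage points. Large changes were mostly found in low genes, so the same shares were taken over genes of at least 5 CPM in the higher group, where they were 8857 of 9962 (88.9%), 159 of 253 (62.8%) and 99 of 151 (65.6%). No test was run on these shares.

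By the amount of transcript gained, *AHNAK* and *VIM* were among the 6 genes with the largest gains. *AHNAK*, a very large scaffold protein under the plasma membrane, had 134, 132 and 132 CPM in the WT libraries and 803, 832 and 819 CPM in the KO libraries (edgeR adjusted p 1.17e-23, log2 fold change 2.63 with SE 0.0281). *VIM*, which encodes the intermediate filament vimentin, had 774, 775 and 779 CPM in the WT libraries and 1317, 1347 and 1363 CPM in the KO libraries (edgeR adjusted p 4.18e-16, log2 fold change 0.79 with SE 0.0243). Both genes lay outside the chromosomal runs described below. *HSP90AB1*, a cytosolic chaperone, rose from 2439 ± 22.9 to 3167 ± 42.9 CPM. The other 3 of the 6 largest gains were *PABPC1*, the poly(A)-binding protein (1476 ± 7.55 to 2335 ± 61.4 CPM), and the ribosomal protein genes *RPL4* (1769 ± 23.7 to 2609.7 ± 51.4 CPM) and *RPLP1* (1430.5 ± 42.9 to 1886 ± 95.4 CPM), which lie within runs on chromosomes 8 and 15. Ribosomal protein genes have many processed copies, and their counts are uncertain.

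The 6 largest losses were *MT-ND2* (5648 ± 266 to 4106 ± 319 CPM) and *MT-CO3* (5634 ± 14.96 to 4982 ± 174 CPM) of the mitochondrial genome, *HBG2*, *H1-2*, a linker histone (972 ± 1.04 to 347 ± 5.05 CPM), *FLNA*, the actin cross-linker filamin A (1353 ± 20.6 to 795 ± 30.8 CPM), and the nuclear non-coding RNA *MALAT1* (3062 ± 61.3 to 2577 ± 105 CPM). Their log2 fold changes were -0.46, -0.18, -1.70, -1.49, -0.77 and -0.25. All 6 passed (edgeR adjusted p 4.31e-05 or lower), which their selection required. None overlapped between the groups, which also held for 51.2% of all genes tested. Of the 13 mitochondrial messengers tested, the calls were 1 higher and 4 lower, with a median of 0.01.

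Most globin genes that K-562 expresses were lower in KO cells. Of 11 globin genes and partners, 9 were tested, 7 were lower, 0 higher, and the median was -1.23, against 0.00 over all genes tested. *HBG2*, a fetal gamma globin and the most abundant of them, had 1532, 1478 and 1488 CPM in the WT libraries and 447, 492 and 449.8 CPM in the KO libraries (edgeR adjusted p 8.17e-18, log2 fold change -1.70 with SE 0.0416). *HBZ*, the embryonic zeta globin, had 87.5, 89.5 and 91.6 CPM in the WT libraries and 28.8, 35.8 and 32.3 CPM in the KO libraries (edgeR adjusted p 1.21e-13, log2 fold change -1.47 with SE 0.0649). *HBG1* had 136, 76.3 and 80.4 CPM in the WT libraries and 54.1, 37.9 and 45.2 CPM in the KO libraries and *HBE1*, the embryonic epsilon globin, was below 1 CPM in all 6 libraries and did not pass (log2 fold change -0.77, edgeR adjusted p 0.299). *AHSP*, the chaperone of free alpha globin, had 16.96, 20.9 and 17.3 CPM in the WT libraries and 1.27, 0.645 and 1.31 CPM in the KO libraries (edgeR adjusted p 1.26e-13, log2 fold change -4.11 with SE 0.182). Per kilobase of exon, *HBG2* stood at 1783 CPM in WT and 551 CPM in KO, above *HBZ* at 77.2 and 27.8 CPM. The paired copies *HBG1* and *HBG2* share most of their sequence, so the split of reads between them is uncertain.

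Haem synthesis followed in part. Of 20 genes for haem and iron, 10 were lower and 4 higher (median -0.17). Of all genes tested 20.7% were lower, of those at 30 to 100 CPM 29.4% and of those at 100 CPM or more 37.6%. The falls included *UROD*, an enzyme from the middle of the pathway (825 ± 21.9 to 467 ± 8.69 CPM, log2 fold change -0.82), the biliverdin reductase *BLVRB* (579.7 ± 6.47 to 303 ± 16.7 CPM, -0.94), and *ALAS2*, the first and rate-setting enzyme in red cells, which had 74.03, 81.5 and 79.9 CPM in the WT libraries and 54.5, 55.1 and 57.8 CPM in the KO libraries (-0.49). *ALAD*, another enzyme of the pathway, was higher (0.28), as was the haem exporter *FLVCR1* (0.48). Of 22 genes of the red-cell membrane and surface, 11 were lower and 4 higher (median -0.18). *SLC4A1*, the anion exchanger band 3, had 13.8, 15.2 and 13.6 CPM in the WT libraries and 1.85, 1.91 and 2.07 CPM in the KO libraries (edgeR adjusted p 2.42e-12, log2 fold change -2.87 with SE 0.152), and *DMTN*, the actin-bundling dematin, went from 86.2 ± 2.49 to 23.2 ± 0.549 CPM. The transferrin receptor *TFRC* moved the other way, from 309 ± 2.41 to 457 ± 7.02 CPM (edgeR adjusted p 1.53e-12, log2 fold change 0.56 with SE 0.02896), as did the spectrin gene *SPTB* (log2 fold change 0.29). Fewer cells of a red-cell type and less of each RNA per cell cannot be told apart in these bulk libraries.

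Of 24 erythroid and stem-cell transcription factors tested, 14 were lower and 4 higher (median -0.23). Lower calls made up 20.7% of all genes tested and 37.6% of those at 100 CPM or more. *GATA1*, the master factor of red cells and megakaryocytes, had 245, 258 and 247 CPM in the WT libraries and 184, 191 and 196.3 CPM in the KO libraries (edgeR adjusted p 8.03e-09, log2 fold change -0.39 with SE 0.0348). *KLF1*, which drives the globin genes, had 135, 134 and 133 CPM in the WT libraries and 88.5, 97.03 and 95.3 CPM in the KO libraries (edgeR adjusted p 9.6e-10, log2 fold change -0.52 with SE 0.0399). Its relative *KLF2* went from 5.41 ± 0.984 to 1.37 ± 0.178 CPM, the adaptor *LMO2* from 92.03 ± 1.01 to 35.6 ± 1.38 CPM and the GATA1 cofactor *ZFPM1* from 77.9 ± 4.24 to 40.9 ± 3.65 CPM. *MYB* (456 ± 9.82 to 544 ± 10.2 CPM, log2 fold change 0.26), *IKZF1* (0.54) and *SOX6*, a repressor of fetal globin (0.68), were higher. *GATA2* (log2 fold change 0.01, edgeR adjusted p 0.917) and *SPI1* (0.02, edgeR adjusted p 0.8603) did not pass. None of the 24 tested factors lay within a chromosomal run.

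Markers of other blood lineages were few and mostly low in both groups. Their calls stand against 22.2% higher and 20.7% lower of all genes tested. Of 22 megakaryocyte genes 9 were tested, 4 higher and 4 lower. *ITGA2B*, the platelet integrin CD41, had 98.6, 104 and 102 CPM in the WT libraries and 43.9, 44.99 and 49.8 CPM in the KO libraries (edgeR adjusted p 6.15e-14, log2 fold change -1.14 with SE 0.0481), and *TUBB1*, the platelet tubulin, went from 41.5 ± 1.42 to 16.7 ± 0.819 CPM. Their summed level was 330.1 to 339 CPM in WT against 249 to 275 CPM in KO libraries, and *GP1BB*, *GP9* and *TREML1* had 0 counts. Of 25 granulocyte genes 8 were tested and 4 were higher, none lower, with a summed level of 14.7 to 15.3 CPM in WT against 40.3 to 41.4 CPM in KO libraries. Most of that sum was *TCN1*, a vitamin B12 carrier of neutrophil granules (6.81 ± 0.671 to 23.1 ± 0.805 CPM), and *CSF3R*, the G-CSF receptor (5.48 ± 0.2804 to 10.2 ± 0.549 CPM), while *ELANE*, *CTSG*, *S100A8* and *S100A9* had 0 counts in all 6 libraries. Of 19 monocyte genes 7 were tested, 5 higher and 1 lower, with *CD33*, a surface receptor of myeloid cells, rising from 34.1 ± 1.86 to 66.6 ± 2.58 CPM; without 1 of 3 libraries in turn (WT replicates 1 and 2, KO replicate 2) the calls in this list fell to 3. The mast-cell genes *MS4A2*, a chain of the IgE receptor, and *HDC* were higher; *MS4A2* had 0.797, 0.878 and 0.487 CPM in the WT libraries and 13.2, 11.7 and 12.9 CPM in the KO libraries, while the mast-cell proteases *CPA3* and *CMA1* had 0 counts. The summed level of the B lymphoid markers was 4.26 to 5.22 CPM in WT against 7.48 to 7.99 CPM in KO libraries with 2 of 4 tested higher (1 without WT replicate 2 or 3 or KO replicate 1), and of the T and NK lymphoid markers 11.5 to 12.8 CPM in WT against 11.98 to 15.5 CPM in KO libraries with 3 higher and 1 lower of 6. *CD3D*, a chain of the T-cell receptor complex, rose (log2 fold change 0.59). The part of other cell types in any result was not tested.

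The RNA of surface receptors changed gene by gene. Of 25 leucocyte surface and adhesion receptors 9 were higher and 9 lower, against 22.2% and 20.7% of all genes tested. *KIT*, the stem cell factor receptor, had 0.616, 0.452 and 0.522 CPM in the WT libraries and 12.2, 11.04 and 13.8 CPM in the KO libraries (edgeR adjusted p 2.19e-15, log2 fold change 4.56 with SE 0.155). *CD96*, an adhesion receptor also found on leukaemic stem cells, had 0.471, 0.452 and 0.696 CPM in the WT libraries and 19.1, 19.6 and 19.7 CPM in the KO libraries (edgeR adjusted p 2.74e-16, log2 fold change 5.19 with SE 0.155). *CD53*, a tetraspanin of white blood cells, had 56.1, 49.5 and 51.2 CPM in the WT libraries and 100.3, 111 and 105 CPM in the KO libraries. The RNAs of these receptors rose while that of *PTPRC* all but vanished. *CD58* (21.8 ± 0.923 to 11.2 ± 1.74 CPM) and the activation marker *CD69* (21.1 ± 1.45 to 13.5 ± 0.657 CPM) were lower, and *CD44* did not pass (log2 fold change 0.18, edgeR adjusted p 0.444). Of 14 integrin genes tested 3 were higher and 5 lower. *ITGA4*, the alpha 4 chain that binds VCAM1, had 0.326, 0.326 and 0.244 CPM in the WT libraries and 10.2, 10.6 and 7.48 CPM in the KO libraries (edgeR adjusted p 9.9e-13, log2 fold change 4.95 with SE 0.248), and *ITGB5* went the other way, from 27.7 ± 1.31 to 9.07 ± 0.409 CPM.

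Of 23 matrix glycoprotein and collagen genes 9 were higher and 4 lower (median 0.30), against 22.2% and 20.7% of all genes tested. Outside the chromosomal runs described below 6 of 20 were higher and 4 lower (median 0.19). *FN1*, fibronectin, had 90.1, 92.7 and 91.7 CPM in the WT libraries and 303, 322 and 312 CPM in the KO libraries (edgeR adjusted p 4.7e-19, log2 fold change 1.77 with SE 0.0362). *HSPG2*, the basement-membrane proteoglycan perlecan, went from 223 ± 6.43 to 448 ± 29.6 CPM and *SPARC* from 20.1 ± 1.35 to 56.3 ± 0.707 CPM, while the galectin *LGALS1* (log2 fold change -0.82) and the protease inhibitor *TIMP1* (-0.78) were lower. The mesenchymal markers summed to 777 to 782 CPM in WT against 1324 to 1369 CPM in KO libraries, nearly all of it *VIM*, and *LUM* had 0 counts. Of the epithelial markers *EPCAM* was higher (log2 fold change 0.72) and the keratins *KRT8* (-0.58) and *KRT18* (-0.22) lower. Of 26 axon-guidance genes 10 were higher and 6 lower; beside *SEMA3D* and *ROBO1*, *SEMA7A* (8.86 ± 0.326 to 23.8 ± 1.02 CPM) and *PLXND1* (23.3 ± 1.27 to 40.5 ± 2.098 CPM) were higher (*SEMA7A* lies within the run on chromosome 15) and *PLXNA2* (9.904 ± 1.41 to 2.38 ± 0.733 CPM) lower.

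Cytokine receptors were more often higher than lower. Of 38 receptors tested 16 were higher and 6 lower (median 0.27), against 22.2% higher of all genes. Outside the chromosomal runs described below 12 of 34 were higher and 6 lower (median 0.20). *TGFBR2*, the type 2 receptor for TGF-beta, had 0.0362, 0.452 and 0.244 CPM in the WT libraries and 15.8, 15.3 and 13.1 CPM in the KO libraries (edgeR adjusted p 2.85e-12, log2 fold change 5.76 with SE 0.308). *EPOR*, the receptor for erythropoietin, had 24.9, 25.1 and 23.97 CPM in the WT libraries and 14.4, 14.9 and 15.3 CPM in the KO libraries (edgeR adjusted p 6.85e-07, log2 fold change -0.73 with SE 0.0879), and *TNFRSF1B* went from 74.5 ± 1.67 to 44.3 ± 1.74 CPM. The JAK-STAT genes split within the family, with 9 of 26 higher and 6 lower. *STAT5A*, which acts below BCR-ABL1 and the erythropoietin receptor, had 255, 261 and 261 CPM in the WT libraries and 477, 487 and 503 CPM in the KO libraries (edgeR adjusted p 1.11e-15, log2 fold change 0.92 with SE 0.0297), and *STAT3* had 412, 423 and 424 CPM in the WT libraries and 264, 264 and 255 CPM in the KO libraries (edgeR adjusted p 6.42e-14, log2 fold change -0.68 with SE 0.02904). *STAT2* (log2 fold change -0.38) and *JAK1* (-0.36) were lower, and the feedback inhibitor *SOCS1* (0.61) was higher. *SOCS3*, which the study follows in mouse progenitors, did not pass (log2 fold change -0.10, edgeR adjusted p 0.232; it passed without KO replicate 3, at -0.18), nor did the NF-kB inhibitor *NFKBIA* (-0.04, edgeR adjusted p 0.711).

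Interferon-stimulated genes did not move as a block: of 37 tested, 9 were higher and 11 lower (median -0.10). The shares over all genes tested were 22.2% higher and 20.7% lower. *IFITM2*, a membrane protein that blocks virus entry, had 20.4, 22.9 and 19.8 CPM in the WT libraries and 86.7, 84.2 and 83.3 CPM in the KO libraries (edgeR adjusted p 3.31e-16, log2 fold change 2.00 with SE 0.0607), while its neighbour *IFITM3* fell (log2 fold change -0.70). *ISG15*, a ubiquitin-like modifier, had 20.7, 21.1 and 21.2 CPM in the WT libraries and 9.39, 9.39 and 9.11 CPM in the KO libraries (edgeR adjusted p 1.25e-10, log2 fold change -1.17 with SE 0.0792), *OAS3* went from 20.98 ± 0.705 to 11.5 ± 0.438 CPM and *IFIT3* from 2.06 ± 1.001 to 7.48 ± 0.494 CPM. In antigen presentation 3 higher and 4 lower of 14 passed, and *PSMB8*, an immunoproteasome subunit, went from 5.25 ± 1.16 to 0.516 ± 0.203 CPM. Of 23 NF-kB pathway genes 7 were higher and 6 lower. Of 29 immediate early and MAPK feedback genes 7 were higher and 9 lower; *EGR1* went from 41.8 ± 1.92 to 16.7 ± 1.52 CPM, *JUN* from 71.8 ± 4.46 to 47.6 ± 3.52 CPM and *SPRED1*, an inhibitor of RAS signalling, from 18.6 ± 0.999 to 45.5 ± 2.75 CPM. *MYC*, which lies in the run on chromosome 8, was slightly higher (log2 fold change 0.16, edgeR adjusted p 0.000604), and *SPRED1* lies in that on chromosome 15.

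Of 46 replication genes 20 were lower and 6 higher (median -0.08), and of 44 mitosis genes 24 were lower and 6 higher (median -0.14). Of all tested genes at 100 CPM or more, 37.6% were lower. With shMBD6 10 of the replication genes were lower and 9 higher. Among the replication genes *TK1* (log2 fold change -0.37) and *FEN1* (-0.34) fell. Among the mitosis genes the largest falls were those of the mitotic kinases *AURKA* (-0.35) and *PLK1* (-0.33) and the condensin subunit *NCAPG* (-0.31). Of the 6 replication genes that were higher, 3 lay within the chromosomal runs described below, as did 4 of the 6 mitosis genes, for example *MCM7* (0.33) on chromosome 7 and *BUB1B* (0.49) on chromosome 15. Of 26 G1 regulators 13 were lower and 6 higher, against 20.7% and 22.2% of all genes tested. *CDKN1A*, the CDK inhibitor p21, had 34.97, 36.6 and 34.4 CPM in the WT libraries and 6.01, 5.35 and 7.07 CPM in the KO libraries (edgeR adjusted p 2.29e-15, log2 fold change -2.53 with SE 0.0866). *CCND3*, a D cyclin, had 250.01, 255 and 248 CPM in the WT libraries and 139.6, 141 and 152 CPM in the KO libraries, *CDK6* went from 77.5 ± 1.33 to 124 ± 6.47 CPM, and *SKP2*, which marks CDK inhibitors for degradation, from 42.2 ± 2.79 to 76.9 ± 2.52 CPM. *CDK6* and *SKP2* lie within runs on chromosomes 7 and 5. In the BCL2 family 4 higher and 9 lower of 23 passed; *BCL2* itself, an inhibitor of cell death, went from 1.299 ± 0.258 to 5.38 ± 0.701 CPM and *BBC3*, which promotes it, from 66.2 ± 2.48 to 39.8 ± 2.67 CPM.

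The most uniform list was that of the nuclear genes for oxidative phosphorylation. Of 48 tested, 40 were lower, 4 higher and 4 did not pass (median -0.32). Lower calls made up 20.7% of all genes and 37.6% of those at 100 CPM or more. The changes were small: *NDUFS7*, a subunit of complex I, had 172, 176 and 174 CPM in the WT libraries and 112, 111 and 123 CPM in the KO libraries (log2 fold change -0.59), and *COX6A1*, a subunit of complex IV, went from 47.2 ± 3.97 to 31.2 ± 1.31 CPM. All 4 that were higher lay on chromosomes 8 and 15 within runs, among them *COX5A* (0.56) and *UQCRB* (0.33). Outside the runs 39 of 42 were lower and 0 higher. The summed level of the list was 8807 to 8939 CPM in WT against 7394 to 7541 CPM in KO libraries.

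Cholesterol and fatty acid synthesis was lower in 22 and higher in 5 of 34 genes (median -0.22), against 20.7% lower of all genes. At 100 CPM or more that share was 37.6%. *NSDHL* (37.7 ± 1.16 to 18.4 ± 1.39 CPM), *MSMO1* (39.1 ± 1.69 to 25.8 ± 1.06 CPM) and *FDPS* (269 ± 4.69 to 193 ± 3.77 CPM), 3 enzymes of the sterol pathway, had the largest falls, and *NSDHL* lies within the run on chromosome X. Of 29 glutathione and redox genes 15 were lower and 7 higher, against 20.7% and 22.2% of all genes tested. *GSTO1*, a glutathione transferase, had 148, 146 and 145 CPM in the WT libraries and 88.8, 88.2 and 89.8 CPM in the KO libraries (edgeR adjusted p 2.7e-13, log2 fold change -0.72 with SE 0.0333). Of 25 glycolysis genes 6 were higher, led by *HK2* (log2 fold change 0.96) and *PKM* (0.55, within the run on chromosome 15), and 7 lower, led by the glucose transporter *SLC2A1* (-0.69). Of 34 ATF4 and serine pathway genes 16 were lower, with *PHGDH*, the first enzyme of serine synthesis, falling from 1108 ± 12.3 to 749.95 ± 26.2 CPM, and 7 higher, with the amino acid transporter *SLC7A5* rising from 319 ± 11.5 to 442 ± 33.2 CPM. Heat shock and chaperone genes (9 higher and 7 lower of 26) and ABC transporters (8 higher and 5 lower of 22) were mixed.

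Genes of cytosine methylation and of its readers that passed did so mostly by small amounts. Of 19 genes of the TET and DNA methylation list 7 were lower, 1 higher and 11 did not pass. The shares over all genes tested were 20.7% lower and 22.2% higher. *TET3* had 93.95, 92.5 and 90.2 CPM in the WT libraries and 77.8, 88.4 and 81.9 CPM in the KO libraries (edgeR adjusted p 0.00618, log2 fold change -0.16 with SE 0.0438), and *TET1* did not pass (log2 fold change 0.09, edgeR adjusted p 0.1704). *GADD45A*, a stress gene linked to DNA demethylation, went from 152 ± 4.75 to 106 ± 0.989 CPM; the 1 gene that was higher was *IDH2* (0.11), within the run on chromosome 15, which lost its call without WT replicate 1 or 2 or KO replicate 3 (0.09, 0.11 and 0.09). Of 15 RNA cytosine-5 methylation genes 3 were higher and 3 lower. *NSUN2*, a main RNA methyltransferase, had 108, 106 and 108 CPM in the WT libraries and 133, 129 and 126 CPM in the KO libraries (edgeR adjusted p 2.65e-06, log2 fold change 0.27 with SE 0.0355). *NSUN5* (0.19) and *PSPC1*, an RNA-binding partner of TET2 (0.17), were also higher, and *TRDMT1* did not pass (-0.04, edgeR adjusted p 0.787). Of 10 genes of the BAP1 complex and its partners 7 did not pass, among them *BAP1* (-0.06), *ASXL1* (0.03) and *MBD6* (-0.10, which passed without WT or KO replicate 3, at -0.145 and -0.14); *MBD5* was higher (0.33, SE 0.0891). Polycomb genes (7 higher and 10 lower of 32) and retroelement silencing genes (5 higher and 6 lower of 24) were mixed, with *CBX5*, the heterochromatin protein HP1 alpha, as the largest rise of the second list (221 ± 5.204 to 316 ± 8.68 CPM).

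Cancer-testis antigens, which are normally silent outside the germline, changed in both directions and by large amounts. Of 35 tested 11 were higher and 13 lower, against 22.2% and 20.7% of all genes tested. *SSX1* had 49.4, 45.1 and 51.2 CPM in the WT libraries and 217, 209 and 202 CPM in the KO libraries (edgeR adjusted p 4.62e-19, log2 fold change 2.11 with SE 0.0429). *MAGEA1* had 13.5, 16.6 and 15.4 CPM in the WT libraries and 61.2, 63.1 and 55.5 CPM in the KO libraries (edgeR adjusted p 1.06e-14, log2 fold change 1.97 with SE 0.0748), against the direction of its neighbours on chromosome X, and *PAGE2B* went from 9.54 ± 1.43 to 0.96 ± 0.241 CPM. With *CTAG2* and *MAEL* they span changes from -10.00 to 2.66 (*DDX53*) on the log2 scale among those of at least 5 CPM. Of 23 imprinted genes 8 were higher, among them *UBE3A* (79.7 ± 2.905 to 139 ± 4.59 CPM), and 4 lower. Of 22 HOX and TALE genes 9 were higher and 4 lower; *HOXB4* rose (44.5 ± 2.11 to 58.5 ± 2.597 CPM) while *HOXB9* (397 ± 7.73 to 255 ± 4.03 CPM) and *MEIS1* (8.12 ± 1.17 to 4.81 ± 0.156 CPM) fell, and *HOXA9* and *HOXA10* had 0 counts.

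Part of the differences followed position on the chromosomes. A running median of the log2 fold change over 51 neighbouring tested genes left the band of 0.25 on either side of 0 in 7 stretches of at least 50 genes. Over all genes tested, 22.2% were higher and 20.7% lower. The stretches were chosen by these same fold changes, so an excess of a single direction within them follows from the choice. The longest spans most of the long arm of chromosome 15, 28402868 to 99251223 (hg38). Of its 560 tested genes 363 were higher and 5 lower, with a median of 0.56 (quartiles 0.34 and 0.80), a 1.47-fold level. The genes with the highest CPM in it were *RPL4*, *RPLP1* and *ALDH1A2*, a retinaldehyde dehydrogenase (412 ± 8.88 to 620.4 ± 1.31 CPM). The same held for chromosome 8, 70471134 to 144428563 (175 of 291 higher, median 0.49), with *PABPC1*, *RPL7* (496 ± 16.9 to 741 ± 34.6 CPM) and *PLEC*, which went the other way (-0.14), for chromosome 7, 64355078 to 148884321 (286 of 507, 0.37), with *SND1* (0.27), *FLNC*, against the trend (-0.37), and *MCM7*, for chromosome 5, 23443586 to 43067452 (39 of 66, 0.40), with *RPL37* (0.35) and *SKP2*, and for chromosome 1, 217850403 to 246768137 (91 of 167, 0.31), with *HNRNPU* (0.16), *EPRS1* (0.36) and *ARF1* (0.11).

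Genes beside the stretches varied. On chromosome 8 the 261 tested genes before the stretch had a median of 0.03, and on chromosome 7 the 284 before and 83 after had -0.05 and -0.05. The 25 genes after the chromosome 1 stretch had a median of 0.26, and the 71 before the chromosome 5 stretch 0.14 (27 higher and 7 lower). Outside chromosomes 7, 8, 15 and X, the medians of whole chromosomes ran from -0.08 to 0.03 over 19 autosomes. The 5 stretches that were higher, chosen for their fold changes, held 1591 of the 17936 genes tested. They held 954 genes called higher, 24.01% of all that were, with 49 called lower. Outside the stretches 18.6% of genes were higher and 21.9% lower. DNA copy number was not measured in these files, and its part in the stretches was not tested.

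In 2 stretches the genes were lower. On chromosome X, 119072993 to 154436516, 112 of 171 genes were lower and 18 higher (median -0.56), and the 25 genes after it had a median of -0.93, *CTAG2* among them. The genes with the highest CPM in it were *FLNA*, *RPL10* (1122 ± 19.8 to 700.04 ± 10.98 CPM) and *RBMX*, which did not pass (0.00, edgeR adjusted p 0.978). The other stretch, chromosome 6, 25140003 to 27147688, holds the large histone gene cluster. Of its 26 protein-coding histone genes 18 were lower and 1 higher (median -0.83), while of its 26 other genes 3 were lower and 7 higher (median -0.07). *H1-2* had 973, 973 and 971 CPM in the WT libraries and 343, 353 and 345 CPM in the KO libraries (edgeR adjusted p 1.78e-19, log2 fold change -1.49 with SE 0.0284), *H2BC12* went from 644 ± 2.59 to 405 ± 3.15 CPM and *H2AC6* from 209 ± 3.56 to 134 ± 2.63 CPM. Most histone messengers end without a poly(A) tail and have near-identical copies, so their counts depend on the library protocol and are uncertain.

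The same genotype contrast in the 6 shMBD6 libraries, which share no library with the shControl comparison but come from the same parental lines, shows how far the differences recurred. There 7985 genes passed (44.5%), 22.9% higher and 21.6% lower. Of the genes at least 2-fold higher with shControl, 885 of 1274 (69.5%) were also called higher with shMBD6 and 23 lower, and of those at least 2-fold lower 407 of 588 (69.2%) were lower and 5 higher. The 12 largest rises and the 12 largest falls all passed in the same direction. The rises were smaller there, with a median of 5.91 against 8.04 on the log2 scale, while the falls had -4.87 against -5.10. The difference between the hairpins passed for 9 of these 12 rises (75%) and 5 of the 12 falls (41.7%), against 21.3% of all genes. Genes chosen for a large change can show a smaller one in a second set, and the part of this choice was not tested.

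The position-linked stretches differed in how far they recurred with shMBD6. On chromosome 15 the per-library median against the WT shControl mean was 0.47 to 0.48 in KO shControl, 0.47 to 0.48 in KO shMBD6 and 0.01 to 0.02 in WT shMBD6 libraries, so both KO groups stood at one level. On chromosome 5 it was 0.32 to 0.37 in KO shControl, 0.15 to 0.23 in KO shMBD6 and -0.08 to 0.01 in WT shMBD6 libraries. On chromosome 1 it was 0.27 to 0.29, 0.21 to 0.23 and 0.02 to 0.03. Between the genotypes, the median log2 fold change on chromosome 5 was 0.40 with shControl and 0.36 with shMBD6. On chromosome 1 these medians were 0.31 and 0.23. The per-library median on chromosome X was -0.49 to -0.45 in KO shControl, -0.08 to -0.05 in KO shMBD6 and 0.00 to 0.03 in WT shMBD6 libraries. There the KO shMBD6 libraries were also lower than WT, but by far less. The histone stretch had -0.38 to -0.24 in KO shControl and 0.02 to 0.10 in KO shMBD6 libraries. The interaction term passed for 91 of the 171 genes on chromosome X (53.2%), 89 of them with a weaker fall or a rise under shMBD6, against 21.3% of all genes and 18.4% on chromosome 15. The 25 genes after the stretch on chromosome X had medians of -0.93 with shControl and -0.31 with shMBD6.

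Single genes also differed in whether they recurred. *ITGA4* was higher with shControl (log2 fold change 4.95) but not with shMBD6 (0.22), an interaction of -4.73 (edgeR adjusted p 4.42e-09). *FN1* was alike (1.77 and -0.07, interaction -1.84, edgeR adjusted p 1.08e-15), and *HSPG2* was higher by less with shMBD6 (1.01 and 0.13). *PTPRC* (-7.67 and -9.15), *ROBO1* (-7.76 and -6.74), *KIT* (4.56 and 3.61), *MS4A2* (4.09 and 4.39) and the globins *HBG2* (-1.70 and -2.01) and *HBZ* (-1.47 and -1.97) were far apart between the genotypes with both hairpins. *ISG15* (-1.17 and -0.09) and *RPL10* (-0.68 and 0.05) were lower with shControl only. By list, 7 of 9 globin genes, 12 of 20 haem genes and 25 of 34 sterol and fatty acid genes were lower with shMBD6. So were 27 of 48 oxidative phosphorylation genes, against 21.6% of all genes. Calls higher in these lists were 0, 3, 2 and 7. The median of the oxidative phosphorylation genes was -0.32 with shControl and -0.14 with shMBD6. Their interaction passed for 19 of 48, against 21.3% of all genes. The red-cell membrane and surface genes had 14 of 22 lower and 2 higher with shMBD6. Erythroid and stem-cell transcription factors had 15 of 24 lower and 5 higher. Some other lists did not recur in this way. For the matrix genes the calls were 9 higher and 4 lower with shControl (median 0.30) and 8 higher and 10 lower with shMBD6 (median -0.26). The interferon-stimulated genes had 9 higher and 11 lower with shControl (median -0.10) but 18 higher and 4 lower with shMBD6 (median 0.25), and the cytokine and growth-factor receptors 16 higher and 6 lower against 13 higher and 11 lower.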

How the data were processed

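Gene counts per library were deposited by the authors for 6 K-562 libraries of this comparison, whose labels give mRNA and an ERCC spike-in. Per the labels and the study's methods, the authors trimmed reads with Trimmomatic 0.39, aligned them with HISAT2 2.2.1 to hg38 and counted reads per gene of GENCODE 29 with HTSeq 0.12.4. Whether counting used strand is not given in the sources used here, so overlapping and antisense genes are uncertain, as are near-identical copies (*HBG1* and *HBG2*, histones, ribosomal protein genes and their pseudogenes), since reads that mapped to several places were left uncounted.

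ERCC rows and the 5 HTSeq summary lines were kept out of library sizes and tests. Genes were kept by edgeR's filterByExpr (17936 of 58721), TMM factors computed, and edgeR 4.0.16 (R 4.3.3) quasi-likelihood models fitted to the 12 K-562 libraries with genotype and hairpin groups. All 12 share the estimate of the spread. P-values were adjusted by Benjamini-Hochberg over all genes. Genes were called at an adjusted p under 0.05. CPM are per TMM-scaled library size, errors are SDs over 3 libraries, and ratios of genes with 1 to 3 counts carry a 95% exact interval. Symbols and positions came from GENCODE 44 (99.1% of identifiers matched), and promoters were read from the hg38 genome and are shown for 1 rise and 1 fall among the 3 largest of each. Total depth was 27625013 to 39877202 counts, and the common coefficient of variation between replicates was 0.0618. On simulated data (17413 genes of this comparison) 85% of 100 genes changed 2-fold and 64% of 100 changed 1.5-fold were recovered, with 9 false calls. The changed genes were drawn only above a minimum mean read count, so genes with few reads are not covered. All other genes were simulated without a genotype difference under shControl, unlike these data.

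Named genes were the 12 largest rises and falls among protein-coding and lncRNA genes with groups that did not overlap and at least 5 CPM in the higher group, the 6 largest gains and losses in CPM, from each of 43 gene lists the preset members and up to 3 called members of at least 5 CPM in each direction, and up to 3 genes with the highest CPM in each chromosomal stretch. The members and lists were chosen with earlier results of these data known. Alternatives were other scalings (RLE, upper quartile, ERCC sums and, chosen after seeing the data, TMM from genes outside the stretches), no filter on low counts, DESeq2 1.42.0, an unadjusted p, the 6 libraries alone, a replicate block, leaving out each library, other windows and another CpG limit. The mouse libraries were not used here. Some named genes and promoters that the rule gives are not reported here.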

Additional observations from a re-analysis of the deposited data

Results flagged for a closer look

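The genotype difference depended on the hairpin for 3820 of 17936 genes (edgeR's quasi-likelihood test of the interaction, adjusted p under 0.05), 1840 with a higher and 1980 with a lower difference under shMBD6. For each gene below the value is the KO against WT log2 fold change with shMBD6 minus that with shControl. The 3 WT shControl libraries, which stand apart in ERCC share, enter each value, and their part was not tested.

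Rises that were smaller or gone with shMBD6, or became falls, were those of *ACP3* (-2.01), *AHNAK* (-0.69), *ARHGAP15* (-1.40), *BCL2* (-1.65), *BCR* (-0.17), *CBX5* (-0.26), *CCDC148* (-3.75), *CD33* (-0.34), *CD96* (-1.38) and *CDK6* (-0.46). The same sign was found for the rises of *CYB5A* (-2.84), *EPRS1* (-0.22), *FN1* (-1.84), *GRID1* (-2.90), *HDC* (-2.13), *HK2* (-0.80), *HSP90AB1* (-0.32), *HSPG2* (-0.87), *IDH2* (-0.16) and *ITGA4* (-4.73). Further weaker rises were *KIT* (-0.95), *LINC00508* (-3.00), *LINC02241* (-2.87), *MYC* (-0.40), *PABPC1* (-0.12), *PLXND1* (-0.77), *SEMA3D* (-4.43), *SEMA7A* (-0.60), *SLC7A5* (-0.22) and *SOCS1* (-0.52). A lower value also held for *SOX6* (-1.12), *SPTB* (-0.93), *STAT5A* (-0.46), *TFRC* (-0.56), *UBE3A* (-0.40), *COL1A2* (-4.39) and *EPX* (-1.07).

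Falls that were smaller or gone with shMBD6 were those of *AHSP* (1.34), *BBC3* (0.48), *BLVRB* (0.20), *CCND3* (0.35), *CDKN1A* (0.70), *COX6A1* (0.39), *CTAG2* (2.46), *DMTN* (0.49) and *EGR1* (0.91). A positive value was also found for the falls of *FLNA* (0.31), *GSTO1* (0.20), *H1-2* (0.87), *H2AC6* (0.62), *H2BC12* (0.66), *ISG15* (1.08), *ITGA2B* (0.77), *ITGB5* (0.45) and *KRT18* (0.18). More falls of this kind were *LGALS1* (0.49), *LMO2* (0.39), *MT-CO3* (0.17), *NSDHL* (0.52), *OAS3* (0.74), *PAGE2B* (1.00), *PSMB8* (1.03), *RPL10* (0.73) and *STAT2* (0.32). Still others were *STAT3* (0.41), *TK1* (0.32), *TKTL1* (0.81), *UROD* (0.13) and *ZFPM1* (0.37).

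Falls that were larger with shMBD6 were *B3GALNT1* (-1.37), *FLNC* (-0.32), *HBG2* (-0.32), *HBZ* (-0.50), *MSMO1* (-0.46), *PTPRC* (-1.49), *SLC2A1* (-0.64), *TET3* (-0.28) and *TUBB1* (-0.40).

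Rises that were larger with shMBD6 were *ALAD* (0.25), *ALDH1A2* (0.23), *MAGEA1* (0.43), *MCM7* (0.15), *PKM* (0.48), *RPL37* (0.54), *RPL7* (0.27), *RPLP1* (0.58), *SND1* (0.13), *SPARC* (0.32), *TCN1* (1.14) and *UQCRB* (0.36).

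Genes that did not pass with shControl but had a called interaction were *CD44* (-1.35), *GATA2* (0.16), *MBD6* (0.28), *TET1* (-0.82) and *TET2* (-0.27).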

How the results depend on the processing

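Apart from ERCC scaling, the number of genes called with shControl ran from 6812 (WT or KO libraries left out 1 at a time, 6812 to 7139) to 8803 (unadjusted p under 0.05), with 7384 by DESeq2. At an unadjusted p under 0.05 the share called was 49.1%. At least 2-fold changes numbered 1775 to 1834 when 1 library was left out, 1609 when the 6 libraries were fitted alone and 2249 without the filter on low counts. With shMBD6, 7059 to 7628 genes passed when 1 library was left out, and the interaction 3226 to 4077. The gap in ERCC share between WT and KO ran from 0.499 to 0.5104 percentage points. With the replicate number as a block 7501 genes passed. The deviations of same-numbered WT and KO libraries from their group means had correlations of -0.00277, -0.0138 and 0.0113, so the numbers do not pair the libraries, and not every library correlated best with its own number. Of the values of named genes under the alternatives, 2375 kept their direction and side of the threshold, 8 lost and 11 gained the call. Called members of the 43 lists moved by over 1.5 times in 0 lists under the alternatives other than ERCC scaling and left-out libraries, and in 23 under ERCC scaling. A narrower window of 25 genes gave 7 stretches and a wider window gave 6 (that on chromosome 6 was lost), and genes of at least 10 CPM gave 5. There chromosomes 5 and 6 had fewer than the 50 genes required. At a CpG ratio limit of 0.75 the shares lay 21.3 and 19.8 percentage points below all genes.

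ERCC scaling called 16181 genes, 13774 of them at least 2-fold, and 13321 for the interaction (56 higher and 13265 lower), after shifts of the median by 1.26 with shControl and -0.96 for the interaction. With shMBD6 it shifted the median by 0.30 and called 9700 genes higher and 1047 lower. By its construction it turned negative log2 fold changes smaller than that shift positive: *ALAS2* 0.76, *AURKA* 0.91, *BAP1* 1.20, *BBC3* 0.53, *BLVRB* 0.32, *CCND3* 0.46, *CD58* 0.30, *CD69* 0.61, *COX6A1* 0.66, *EPOR* 0.52, *FDPS* 0.78, *FEN1* 0.92, *FLNA* 0.49, *FLNC* 0.89, *GADD45A* 0.74, *GATA1* 0.86, *GSTO1* 0.54, *H2AC6* 0.62, *H2BC12* 0.59, *HBG1* 0.17, *HOXB9* 0.62, *IFITM3* 0.56, *ISG15* 0.082, *ITGA2B* 0.12, *JAK1* 0.90, *JUN* 0.67, *KLF1* 0.74, *KRT18* 1.03, *KRT8* 0.68, *LGALS1* 0.44, *MALAT1* 1.01, *MBD6* 1.16, *MEIS1* 0.49, *MSMO1* 0.66, *MT-CO3* 1.08, *MT-ND2* 0.80, *NCAPG* 0.94, *NDUFS7* 0.67, *NFKBIA* 1.22, *NSDHL* 0.22, *OAS3* 0.39, *PHGDH* 0.69, *PLEC* 1.11, *PLK1* 0.93, *RPL10* 0.58, *SLC2A1* 0.57, *SOCS3* 1.16, *STAT2* 0.88, *STAT3* 0.57, *TET3* 1.101, *TIMP1* 0.48, *TK1* 0.89, *TNFRSF1B* 0.51, *TRDMT1* 1.22, *UROD* 0.43, *ZFPM1* 0.33.

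The precision of low genes is limited by depth: under 1 CPM a library held fewer than 40 reads of a gene, and the smallest p of an exact test of 3 against 3 libraries is 0.1.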

Other observations

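Large rises also lay below the limit of 5 CPM, in genes chosen here after their values were seen. *SLIT2*, a ligand of *ROBO1*, had 0, 0 and 0 reads in the WT and 93, 76 and 45 in the KO libraries. Against the limit that 0 counts in the 3 WT libraries together allow (3 counts), it was at least 67.9-fold higher, in the cells whose *ROBO1* was lower. The imprinted, retroelement-derived gene *PEG10* had 0, 0 and 0 reads in the WT and 20, 40 and 13 in the KO libraries (at least 23.2-fold by the same floor). The matrix genes *COL1A2*, a chain of type I collagen, and *THBS1*, thrombospondin 1, had 0, 1 and 0 reads in the WT and 68, 94 and 58 in the KO libraries and 0, 0 and 1 reads in the WT and 20, 21 and 11 in the KO libraries, ratios of 209-fold (95% exact interval 37.2 to 8311) and 49.5-fold (95% exact interval 8.503 to 1993). *COL1A2* and *PEG10* lie within the run on chromosome 7 and *THBS1* within that on chromosome 15. With shMBD6 all 4 were higher in KO too, with log2 fold changes of 5.03, 4.95, 2.89 and 3.78.

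The neighbours *ABCB1*, the drug efflux pump P-glycoprotein, and *ABCB4*, a phospholipid transporter, were higher within the run on chromosome 7 (log2 fold changes 3.66 and 4.71 with shControl and 3.37 and 5.97 with shMBD6), far above its median of 0.37. *ABCB1* had 0.507, 0.201 and 0.0696 CPM in the WT libraries and 3.09, 2.97 and 3.598 CPM in the KO libraries. *CD36*, a fatty acid receptor of red-cell precursors, macrophages and platelets, lies in the same run and had 0, 5 and 0 reads in the WT and 12, 34 and 28 in the KO libraries. *EPX*, the peroxidase of eosinophils, had 0.471, 0.326 and 0.348 CPM in the WT libraries and 4.42, 5.24 and 4.62 CPM in the KO libraries (edgeR adjusted p 1.51e-12, log2 fold change 3.65 with SE 0.188). For each of these 4 genes, chosen after their values were seen, the WT and KO libraries did not overlap. The same held for 51.2% of all genes tested.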
